A study of Mus musculus with 32 samples.

Results

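Wdr4 and 5 other genes of transfer RNA (tRNA) methylation, Mettl1, Trmt6, Trmt61a, Trmt1 and Nsun2, were followed through naive B cells, germinal centre B cells and plasma cells of mouse spleen. They were found by their names among the 53465 genes of the count table, and each name occurred once. Wdr4 was picked because its level differed between genotypes in opposite directions in the 2 germinal centre zones, so those differences are given below as a description, with no test. The other 5 were taken for their function, with earlier results of these data known.

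The mice were C57BL/6, aged 12 weeks, and had been given NP-CGG, a hapten on a carrier protein, in alum by intraperitoneal injection 14 days before the cells were sorted from the spleen. All carried AID-cre, a Cre recombinase named for activation-induced deaminase, the mutator enzyme of activated B cells. The WT groups carried AID-cre alone and the aPIK3CD groups AID-cre with aPIK3CD, described for the series as activated signalling of PIK3CD, the catalytic subunit of PI3K-delta. From each genotype 4 populations were sorted (naive, dark zone, light zone, plasma cells), with 4 libraries per group, 32 in all, and 500 cells per library. The series asks what activated PIK3CD signalling changes in each population. Whether the replicates of a group came from separate mice is not stated, so p-values measure the spread between these libraries, which may be technical.

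Transfer RNAs are methylated at many bases after transcription, and the marks affect how stable the tRNAs are and how well they are read by the ribosome. Wdr4 is a beta-propeller protein that holds the tRNA and the catalytic subunit Mettl1 together, and the pair makes N7-methylguanosine in the variable loop of a set of tRNAs. Wdr4 also has a role as substrate adaptor of CUL4 ubiquitin ligases. Trmt6 and Trmt61a likewise form 1 enzyme, with Trmt61a as the catalytic subunit, which makes N1-methyladenosine in the T loop of tRNAs and in some mRNAs. Trmt1 makes dimethylguanosine in the tRNA core, and Nsun2 makes 5-methylcytidine in many tRNAs. Germinal centre B cells divide in the dark zone and compete for antigen and T cell help in the light zone, and plasma cells secrete antibody.

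The promoters of the pair that shares 1 enzyme, Wdr4 and Mettl1, are shown because their mRNAs went in opposite directions in plasma cells. Both stretches are from RefSeq on GRCm38.p6, run 5′ to 3′ along the gene's strand and reach from 250 bases before to 50 bases after the annotated start. Wdr4 is at chr17:31512438-31512737 on the minus strand and Mettl1 at chr10:127041682-127041981 on the plus strand. Capitals mark CACGTG, the E-box read by MYC and its partners, and CCGGAAGT, an ETS-type motif, both searched on both strands.
Wdr4: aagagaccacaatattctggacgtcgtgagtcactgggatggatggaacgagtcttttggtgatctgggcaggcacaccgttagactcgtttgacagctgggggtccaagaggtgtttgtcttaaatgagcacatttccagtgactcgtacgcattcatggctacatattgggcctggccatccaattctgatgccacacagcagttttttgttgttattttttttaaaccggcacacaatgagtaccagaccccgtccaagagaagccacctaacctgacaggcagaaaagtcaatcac
Mettl1: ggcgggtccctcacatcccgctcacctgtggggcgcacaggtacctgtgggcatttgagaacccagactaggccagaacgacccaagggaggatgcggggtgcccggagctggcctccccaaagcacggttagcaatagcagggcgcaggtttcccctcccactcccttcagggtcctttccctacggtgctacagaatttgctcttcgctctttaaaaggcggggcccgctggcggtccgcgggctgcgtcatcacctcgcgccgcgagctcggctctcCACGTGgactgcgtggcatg
The Mettl1 window held CACGTG once, starting 30 bases after the start, and the Wdr4 window held neither motif. Of 32544 mouse promoters of this length, 7.17% held CACGTG and 3.92% CCGGAAGT. Of the other 4 members, Trmt61a and Nsun2 were in the table, Trmt61a with both motifs and Nsun2 with CCGGAAGT. The Wdr4 window held CCAAT at 2 places, and 37.4% of promoters held it at least once. The letters GTAAACA, TTTNGCGC and GGGCGG, also searched on both strands, were in none of the 4 windows and in 3.66%, 1.39% and 35.9% of all promoters. A GC content of 47.7% for Wdr4 stood beside 64.7% for Mettl1, with a median of 53.0% over all promoters. A match describes letters in the window and not binding.

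Total counts lay between 473149 and 2820830 in 31 libraries, and dark zone WT replicate 3 stood apart with 25797. That library held 0 counts of Wdr4, Mettl1, Trmt6 and Trmt61a, 2 of Trmt1 and 5 of Nsun2. A count of 0 there still allows a level of up to 105 CPM (3 counts of its TMM-scaled total, counting error only). That library is therefore left out of the ranges below, and the dark zone WT values are of 3 libraries unless stated. The fits contain it unless stated. In the 4 libraries titled aPIK3CD replicate 1 the genotype field reads WT; they are grouped here by title. The 7 plasma cell markers, among them Prdm1 and Jchain, summed to 11402 to 14659 CPM in plasma cells and to 1691 CPM or less elsewhere, and the 7 germinal centre markers to 1643 to 2986 CPM in the zones and 274 or less outside them. Plasma cell libraries also held T cell marker transcripts, whose 9 genes summed to 519 to 1200 CPM against 139 to 276 in naive B cells, 213 to 371 in the dark zone and 330 to 611 in the light zone (of the 9, Cd8a was at 0 in the aPIK3CD dark zone). The 9 myeloid markers summed to 31.3 to 622 CPM in plasma cells and 39.1 to 368 in the light zone. In naive B cells they summed to 6.90 to 72.8 CPM and in the dark zone to 15.4 to 66.2. Of these 9, Mpo, S100a8 and S100a9 were at 0 in plasma cells. In bulk libraries fewer cells of a type and less RNA per cell cannot be told apart.

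Wdr4 was higher in naive B cells than in plasma cells, and in the zones its libraries lay apart by genotype, as the choice of the gene required. Levels are given as CPM, counts scaled to TMM-adjusted library sizes, in the order of the replicate numbers. In the WT dark zone Wdr4 measured 14.8, 19.8 and 26.6 CPM in replicates 1, 2 and 4, and in the aPIK3CD dark zone 55.7, 45.5, 58.9 and 53.8 CPM. All 4 aPIK3CD libraries lay above the 3 of WT. In the WT light zone the 4 libraries measured 109.7, 64.4, 97.1 and 91.4 CPM, and in the aPIK3CD light zone 59.4, 51.6, 56.4 and 51.0 CPM. Here all aPIK3CD libraries lay below those of WT, so the order of the genotypes was turned between the zones. As log2 differences of aPIK3CD minus WT, fitted for each zone alone, these were 1.40 (SE 0.32) in the dark zone and -0.74 (SE 0.20) in the light zone, and -2.12 (SE 0.39) for light minus dark zone in a fit of all libraries. These are the values that chose the gene.

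Seen within each genotype, the gap between the zones was present in WT and near 0 in aPIK3CD. This restates the difference that chose the gene. Wdr4 was 2.16 higher in the light than in the dark zone on the log2 scale in WT (SE 0.30) and 0.03 higher in aPIK3CD (SE 0.26). Without dark zone WT replicate 3 the same values were 2.13 and 0.03. The level common to both aPIK3CD zones, 53.5 ± 5.70 CPM in the dark zone and 54.6 ± 4.01 in the light zone (SD, n = 4), lay between the WT means of 20.4 ± 5.95 (n = 3) and 90.6 ± 19.1 (n = 4). With the replicate 1 libraries of aPIK3CD counted as WT, the dark zone difference was 0.87 (SE 0.37) and the light minus dark zone difference -1.52 (SE 0.47). In CPM, aPIK3CD replicate 1 measured 55.7 in the dark zone, within the range of the other 3 aPIK3CD libraries, and 59.4 in the light zone, above their 51.0 to 56.4 and below every WT library.

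Outside the germinal centre the genotypes overlapped in Wdr4. Naive libraries held 44.8, 65.4, 82.4 and 55.5 CPM in WT and 69.0, 80.9, 54.5 and 77.4 CPM in aPIK3CD, and the ranges overlapped (log2 difference 0.17, SE 0.23, edgeR adjusted p = 1.0). In plasma cells it measured 17.3, 7.22, 26.3 and 4.37 CPM in WT and 13.2, 9.04, 16.1 and 9.68 CPM in aPIK3CD, from 2 to 16 counts per library. These counts were too low for the filter, and no test was made there. In order of the group means, plasma cells came lowest, 12.0 CPM in aPIK3CD and 13.8 in WT. They were followed by the WT dark zone at 20.4, the aPIK3CD dark zone at 53.5, the aPIK3CD light zone at 54.6, naive B cells at 62.0 in WT and 70.4 in aPIK3CD, and the WT light zone at 90.6 CPM. The ranges of neighbours in this order overlapped, except between the WT and the aPIK3CD dark zone.

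**Figure D1:**
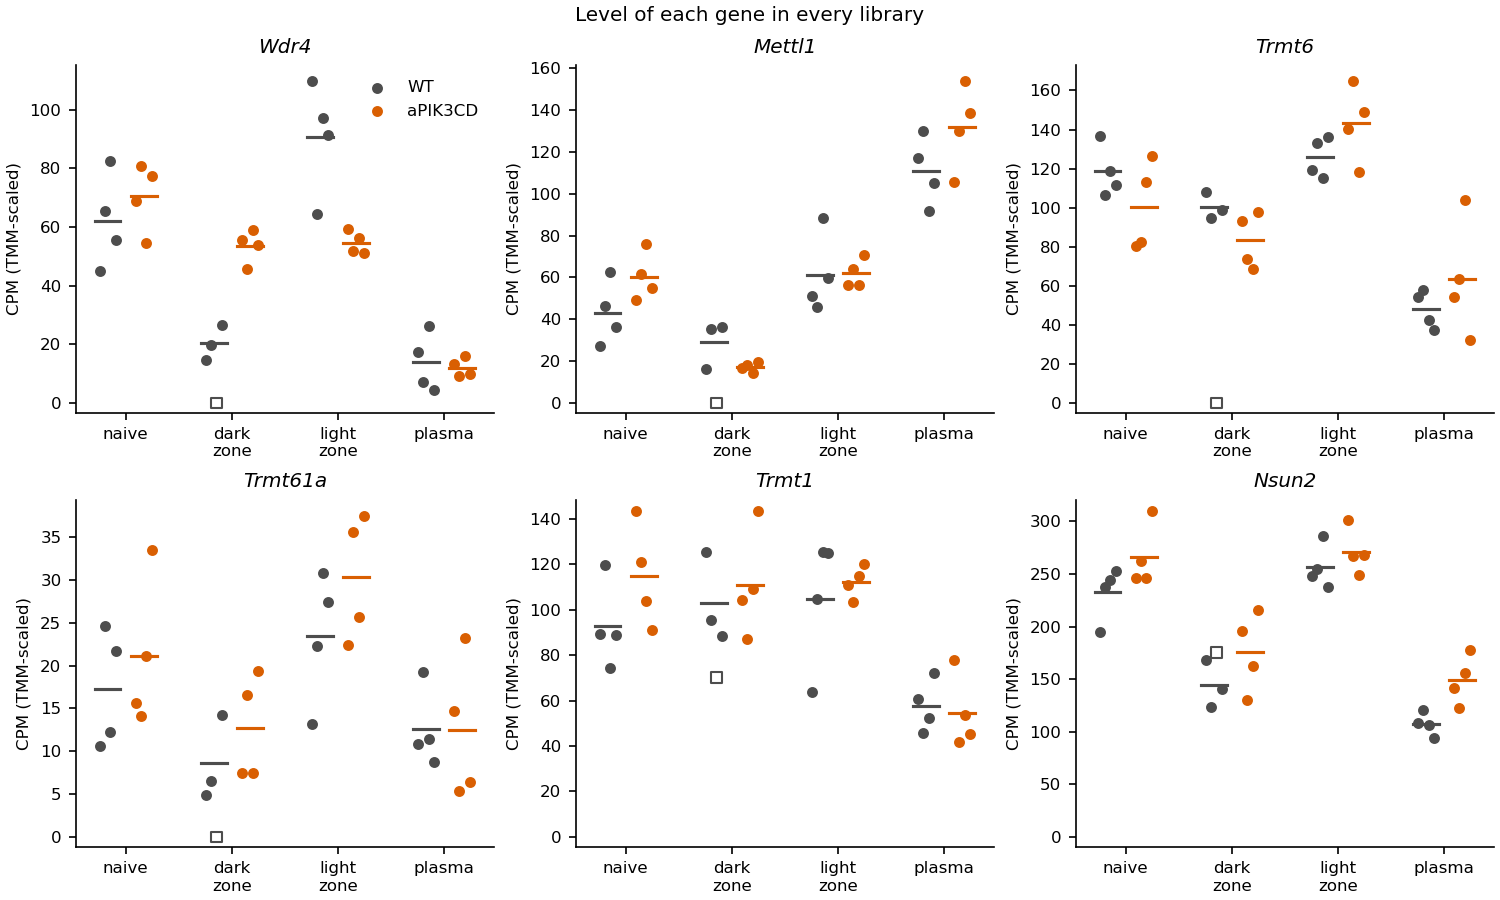
Level of each of the 6 genes in every library, in CPM relative to TMM-scaled library sizes on a linear axis, for WT (grey) and aPIK3CD (orange) in 4 populations; short bars are means of libraries with at least 100000 counts and the open square is dark zone WT replicate 3 with 25797 counts. In the Wdr4 panel the genotypes lie apart in both zones and in opposite order, and in the Mettl1 panel plasma cells are highest.

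Mettl1, the catalytic partner of Wdr4, had its highest level in plasma cells and its lowest in the dark zone. In plasma cells it measured 117, 130, 91.9 and 105 CPM in WT and 106, 130, 154 and 139 CPM in aPIK3CD. In the dark zone it measured 16.2, 35.2 and 36.4 CPM in WT replicates 1, 2 and 4 and 16.5, 18.2, 14.4 and 19.3 CPM in aPIK3CD. No dark zone library reached the lowest light zone or plasma cell library. The light zone measured 51.0, 45.9, 88.2 and 59.9 CPM in WT and 56.5, 64.2, 56.4 and 70.9 CPM in aPIK3CD, and naive B cells 27.0, 46.2, 62.6 and 36.3 CPM in WT and 49.2, 61.6, 75.9 and 54.9 CPM in aPIK3CD. Light zone and naive B cells overlapped widely. All 8 plasma cell libraries lay above every library of the other 3 populations. The share of all genes whose populations lie apart in this way is not given here, for Mettl1 or for the other members.

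Trmt6 and Trmt61a, the subunits of the methyladenosine enzyme, both had their highest mean in the light zone. Trmt6 measured 134.5 ± 17.0 CPM in the light zone (SD, n = 8 over both genotypes), 109.5 ± 19.8 in naive B cells (n = 8), 90.7 ± 14.3 in the dark zone (n = 7) and 55.7 ± 22.1 in plasma cells (n = 8). Every light zone library of Trmt6 lay above every library of the dark zone and of plasma cells. Trmt61a was scarce, with 26.9 ± 7.86 CPM in the light zone, 19.2 ± 7.57 in naive B cells, 10.96 ± 5.65 in the dark zone and 12.5 ± 6.22 in plasma cells. Its plasma cell values rest on 3 to 13 counts per library, and all its populations overlapped.

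Trmt1, which makes dimethylguanosine, was level in naive B cells (103.9 ± 22.6 CPM), the dark zone (107.4 ± 20.6) and the light zone (108.4 ± 19.9) and measured 56.2 ± 13.2 CPM in plasma cells (SD, n = 8, 7, 8 and 8). Every plasma cell library lay below every dark zone library. Nsun2, the cytosine methyltransferase, measured 263.9 ± 21.3 CPM in the light zone, 249.3 ± 31.6 in naive B cells, 162.4 ± 34.2 in the dark zone and 128.3 ± 27.9 in plasma cells. Its light zone and naive B cell libraries lay above all plasma cell libraries, and the light zone above the whole dark zone.

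Per kilobase of exon, which allows levels of different genes to be compared, Nsun2 was the most abundant in naive B cells, with 43.4 ± 5.50 CPM per kilobase (SD, n = 8). Trmt6 followed with 20.3 ± 3.67, Mettl1 with 17.8 ± 5.36, Trmt1 with 16.5 ± 3.58, Wdr4 with 12.2 ± 2.53 and Trmt61a with 7.88 ± 3.11. In plasma cells Mettl1 stood highest on this scale, at 41.8 ± 7.01 CPM per kilobase against 22.4 ± 4.87 for Nsun2. Wdr4 was then the lowest at 2.37 ± 1.28. Exon lengths were taken over all annotated transcripts, and which of them the cells use was not measured.

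Between the zones, averaged over both genotypes so that the genotype difference of Wdr4 does not enter, 5 of the 6 genes were higher in the light zone and 0 lower. Over all genes tested 5.98% were higher and 3.49% lower (edgeR quasi-likelihood test, adjusted p below 0.05). Mettl1 was higher by 1.47 on the log2 scale (SE 0.19, adjusted p = 3.29e-06), Trmt61a by 1.35 (SE 0.32, adjusted p = 0.00548), Wdr4 by 1.10 (SE 0.20, adjusted p = 0.000305), Nsun2 by 0.71 (SE 0.10, adjusted p = 1.26e-05) and Trmt6 by 0.58 (SE 0.17, adjusted p = 0.0229), all with edgeR. For Wdr4 this average joins a WT gap and an aPIK3CD value near 0, and 5 of its 8 light zone libraries lay above the highest dark zone library. Mettl1, Nsun2 and Trmt6 did not overlap between the zones, and their light minus dark zone differences were 1.08, 0.80 and 0.37 in WT and 1.86, 0.63 and 0.78 in aPIK3CD. The share of all genes without overlap between the zones is not given here. Trmt1 measured 0.02 (SE 0.15, edgeR adjusted p = 1.0). The count stayed at 5 without dark zone WT replicate 3, and without all 4 replicate 1 libraries of aPIK3CD. Trmt6 missed the threshold without dark zone WT replicate 2 (edgeR adjusted p = 0.0514) and without dark zone aPIK3CD replicate 3 (edgeR adjusted p = 0.0524).

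Against naive B cells, the dark zone was lower in 4 of the 6 genes and higher in 0. Over all genes tested 30.6% were lower and 28.7% higher, so most of the transcriptome moved. The 4 were Mettl1 (-1.15, SE 0.19, edgeR adjusted p = 4.69e-06), Wdr4 (-0.96, SE 0.20, edgeR adjusted p = 9.16e-05), Trmt61a (-0.82, SE 0.32, edgeR adjusted p = 0.0273) and Nsun2 (-0.58, SE 0.10, edgeR adjusted p = 1.01e-05). Within WT alone the Wdr4 difference was -1.57 (SE 0.30) and within aPIK3CD -0.35 (SE 0.25), values that share the genotype difference that chose it. For Mettl1 the difference was -0.53 (SE 0.27) in WT and -1.77 (SE 0.26) in aPIK3CD. Trmt6 measured -0.23 and Trmt1 0.09, and both missed the threshold. Of 25 genes of DNA replication and mitosis 24 were higher in the dark zone and 0 lower. The 7 natural killer cell markers, given with no test, summed to 235 to 501 CPM in naive B cells and 0.65 to 101 in the dark zone, where Gzma, Klre1 and Ncr1 were at 0 in WT. The part of either list in these differences was not tested. The Trmt61a call was lost in 8 of 24 alternatives, among them leaving out the 4 replicate 1 libraries of aPIK3CD (edgeR adjusted p = 0.0568). Those that leave out 1 library each were dark zone WT replicate 1 or 2, naive WT replicate 2, dark zone aPIK3CD replicate 1 or 3, and naive aPIK3CD replicate 4, with edgeR adjusted p up to 0.0796.

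The light zone differed from naive B cells in 0 of the 6 genes by edgeR, at a background of 28.7% higher and 27.8% lower. An unadjusted p below 0.05 was found for 1 of 6, Trmt6, beside 7140 of the 11736 genes tested (edgeR). DESeq2 also called 0, and limma voom called 2, Trmt6 and Trmt61a, both higher. Within WT Wdr4 was 0.59 (SE 0.25) above naive B cells and within aPIK3CD -0.31 (SE 0.25), values that share the genotype difference that chose it. The edgeR log2 differences ran from 0.11 for Trmt1 to 0.53 for Trmt61a (SE 0.29). The 7 natural killer cell markers summed to 3.82 to 193 CPM in the light zone, below the 235 to 501 CPM of naive B cells, and their part was not tested. Trmt6 (0.35, SE 0.16, edgeR adjusted p = 0.0642) passed without naive WT replicate 1 (0.0454) or naive aPIK3CD replicate 4 (0.0385). Mettl1 (0.32, SE 0.17, edgeR adjusted p = 0.109) passed without naive WT replicate 3 (0.0314).

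In plasma cells the mRNAs of the Mettl1 and Wdr4 subunits went apart. Against naive B cells Mettl1 was 2.59-fold higher (log2 difference 1.38, SE 0.18, edgeR adjusted p = 3.90e-08) and Wdr4 4.56-fold lower (-2.19, SE 0.23, edgeR adjusted p = 4.85e-10). Trmt6 (-0.86, SE 0.18), Nsun2 (-0.84, SE 0.10) and Trmt1 (-0.74, SE 0.16) were lower as well, with edgeR adjusted p of 9.99e-05, 1.84e-08 and 0.000212. Trmt61a measured -0.48 (SE 0.33, edgeR adjusted p = 0.214). This made 1 of 6 higher and 4 lower, with 29% of all genes tested higher and 32.5% lower. In plasma cells alone Wdr4 and Trmt61a were below the filter. They were tested only through their counts in the other populations, and their p-values carry that limit in every plasma cell comparison. No plasma cell library of Wdr4 or Nsun2 reached the lowest naive library. Of the 9 T cell markers 7 were higher in plasma cells and 1 lower. Neither their part in these differences nor that of the myeloid markers was tested.

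Against the dark zone, 1 gene was higher and 4 lower, with 31.8% of all genes higher and 33.5% lower. Wdr4, among the lower, passed the filter only through the populations other than plasma cells. Mettl1 was 5.75-fold higher (2.52, SE 0.20, edgeR adjusted p = 6.28e-13). Wdr4 (-1.23, SE 0.24), Trmt1 (-0.83, SE 0.17), Trmt6 (-0.63, SE 0.19) and Nsun2 (-0.26, SE 0.11) were lower, with edgeR adjusted p of 4.77e-05, 6.91e-05, 0.00365 and 0.0343. The Nsun2 call did not last: it was lost in 13 of 24 alternatives, with DESeq2 size factors at -0.10 (SE 0.11, edgeR adjusted p = 0.417). It was also lost without any 1 of dark zone WT replicate 1, dark zone aPIK3CD replicates 1 and 4, plasma cell WT replicates 3 and 4, and plasma cell aPIK3CD replicates 1 and 2 (edgeR adjusted p from 0.0514 to 0.107). For Wdr4 the difference was -0.40 (SE 0.36) within WT and -2.06 (SE 0.33) within aPIK3CD, values that share the genotype difference that chose it.

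Against the light zone all 6 genes passed, 1 higher and 5 lower, with 30% of all genes higher and 34.2% lower. Wdr4 and Trmt61a, among the lower, passed the filter only through the populations other than plasma cells. Mettl1 was higher by 1.05 (SE 0.18, edgeR adjusted p = 4.55e-06). Wdr4 was lower by -2.33 (SE 0.23), Trmt6 by -1.21 (SE 0.18), Trmt61a by -1.01 (SE 0.33), Nsun2 by -0.98 (SE 0.10) and Trmt1 by -0.86 (SE 0.17), where the largest edgeR adjusted p was 0.00909, for Trmt61a. With DESeq2 size factors the median of all genes moved by 0.16 in plasma cells against the dark zone, by 0.15 against the light zone and by -0.10 in the dark zone against naive B cells. Removing immunoglobulin and T cell receptor genes before normalisation left 1 gene higher and 4 lower against naive B cells and 1 higher and 5 lower against the light zone, and changed 4 lower to 3 lower against the dark zone, where Nsun2 was lost (edgeR adjusted p = 0.0536).

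**Figure D2:**
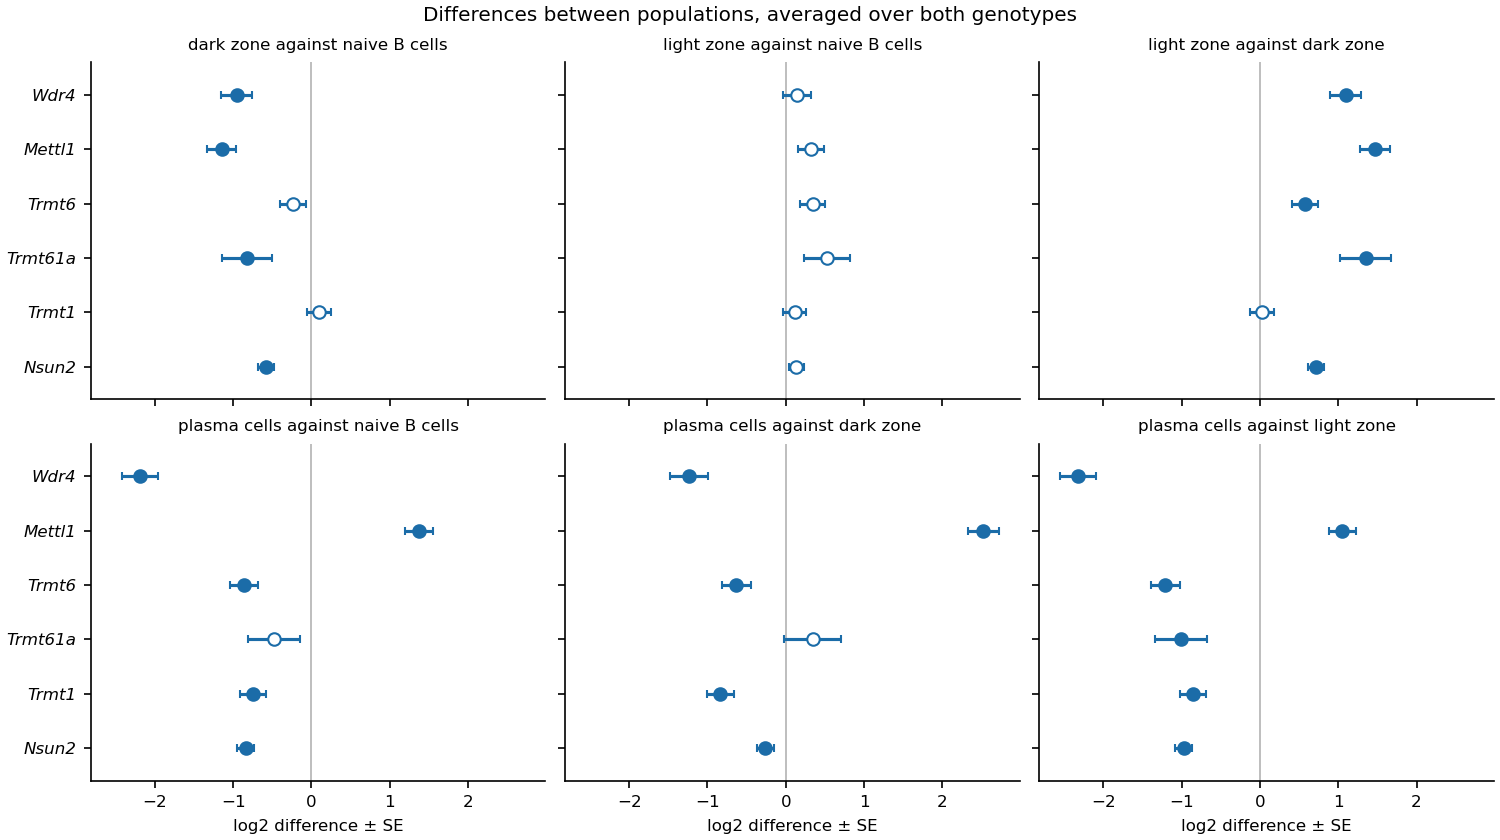
Log2 differences (± SE) of the 6 genes between populations, averaged with equal weight over both genotypes; filled circles passed the edgeR test at an adjusted p below 0.05 and open circles did not. Mettl1 lies to the right of 0 in all 3 plasma cell panels, up to 2.52, and Wdr4 to the left, down to -2.33.

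An exon of Mettl1 shares 100 bases, 3.44% of its exonic length, with Eef1akmt3, a lysine methyltransferase gene on the other strand. Eef1akmt3 measured 12.5 to 42.7 CPM in plasma cells and at most 5.17 CPM in any other library of at least 100000 counts. It is given with no test, since its counts were too low for the filter in every other population alone. The library kit does not mark strand, so reads of the shared bases cannot be assigned, and their part in the Mettl1 difference was not tested. Wdr4 shares 585 bases, 10.8% of its exonic length, with an antisense gene, AC166172.3, that has no values in this table. Trmt6, Trmt61a and Trmt1 share no exonic bases with another gene, and Nsun2 shares 165 with Tent4a and 469 with Gm17108. Gm17108 reached at most 3 counts in a library and Tent4a 67, or 40.3 CPM. Tent4a, listed in the count table as Papd7, was lower in plasma cells than in the light zone (-1.87, SE 0.45, edgeR adjusted p = 0.000559) and the dark zone (-2.07, SE 0.46, edgeR adjusted p = 0.000218). Nsun2 was lower in both too, though its call against the dark zone did not last. Against naive B cells Tent4a was higher in the dark zone (1.32, SE 0.38, edgeR adjusted p = 0.00346), where Nsun2 was lower. It was also higher in the light zone (1.13, SE 0.37, edgeR adjusted p = 0.00979), where Nsun2 did not pass. Between the zones Tent4a measured -0.19 (SE 0.38), while Nsun2 was higher in the light zone. The part of Tent4a in the Nsun2 values was not tested.

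The ratio of 2 mRNAs within a library puts the subunits side by side without scaling between libraries, though with 0.5 added to each count it is drawn toward 0 on the log2 scale where counts are low. The log2 ratio of Wdr4 to Mettl1 counts was 0.39 ± 0.37 in naive B cells (SD, n = 8), 0.73 ± 1.16 in the dark zone (n = 7), 0.20 ± 0.51 in the light zone (n = 8) and -3.28 ± 0.81 in plasma cells (n = 8). From the highest plasma cell library, at -1.78, to the lowest library elsewhere, at -0.82, there was no overlap. Plasma cells differed from naive B cells by -3.67, from the dark zone by -4.01 and from the light zone by -3.49, each with an adjusted p of 0.000622 over 12 tests (two-sided exact permutation test over libraries, unadjusted p 0.000155, the smallest it can give). These 3 held in all 33 alternatives. The wide dark zone spread joins WT libraries at -0.46 ± 0.35 (n = 3) and aPIK3CD libraries at 1.63 ± 0.31 (n = 4), a difference that belongs to those that chose Wdr4.

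The log2 ratio of Trmt6 to Trmt61a counts was 2.57 ± 0.59 in naive B cells, 3.15 ± 0.81 in the dark zone, 2.36 ± 0.40 in the light zone and 2.13 ± 0.54 in plasma cells. Only plasma cells against the dark zone passed (-1.03, adjusted p = 0.0406, exact permutation test), and the call held in 21 of 33 alternatives. It was lost with dark zone WT replicate 3 included (adjusted p = 0.551, exact permutation test) and without any 1 of 11 libraries, dark zone replicates 1 and 2 of WT and 1 and 3 of aPIK3CD, and all plasma cell libraries but aPIK3CD replicate 2 (adjusted p 0.0612 to 0.0919, exact permutation test). Light against dark zone (-0.79, adjusted p = 0.069, exact permutation test) passed in 3 alternatives, without dark zone aPIK3CD replicate 2 or 4 or light zone WT replicate 1 (adjusted p 0.0208 to 0.0378, exact permutation test). Plasma against naive B cells (-0.45, adjusted p = 0.240, exact permutation test) passed in 1, without plasma cell aPIK3CD replicate 2 (adjusted p = 0.0276, exact permutation test). Between genotypes the ratio passed in 0 of 4 populations (lowest unadjusted p = 0.171, exact permutation test). The differences were -0.54 in naive B cells, -0.84 in the dark zone, -0.22 in the light zone and 0.49 in plasma cells. With these numbers of libraries the exact permutation test can give no unadjusted p below 0.0286. After adjustment over the 4 populations 1 alone could not pass, so the 0 does not show equal ratios.

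**Figure D3:**
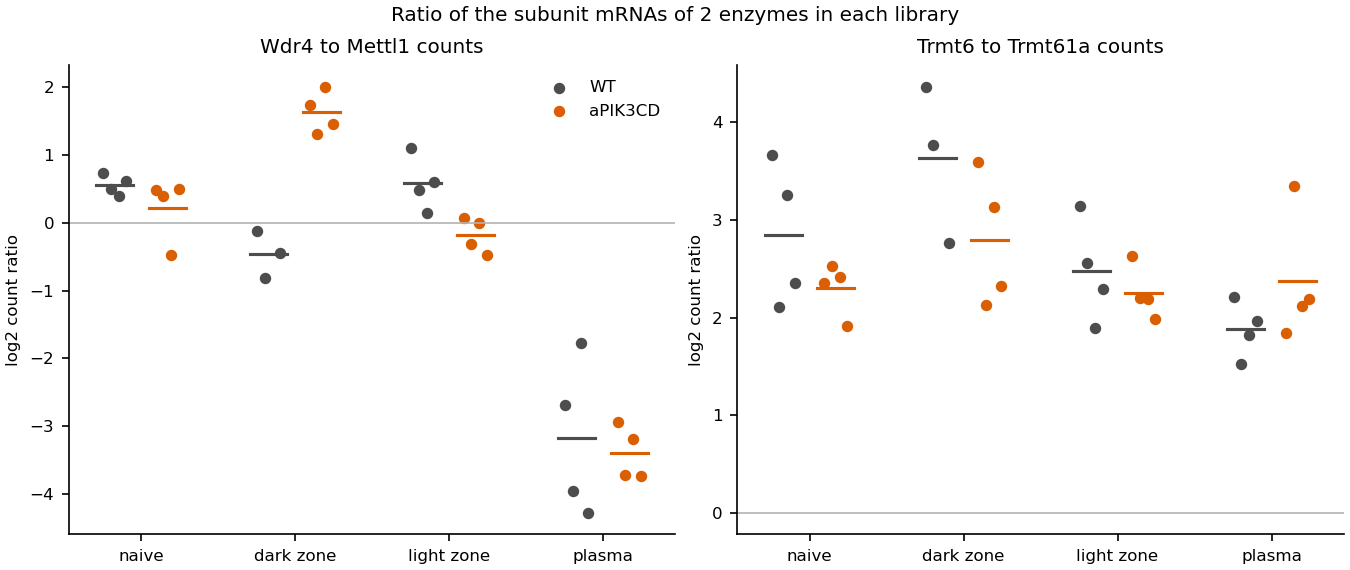
Log2 ratio of Wdr4 to Mettl1 counts (left) and of Trmt6 to Trmt61a counts (right) in each library with at least 100000 counts, by population, for WT (grey) and aPIK3CD (orange), with means as bars. All plasma cell libraries lie at or below -1.78 on the left, and the populations overlap on the right.

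Other genes were taken from a list headed tRNA methyltransferases, chosen by function, with earlier results of these data known. Whether each of them, Mrm1 and Thumpd2 included, acts on tRNA was not checked here. Of the 39 genes of the list 38 were tested. Between the zones 5 were higher in the light zone and 0 lower, beside 5.98% and 3.49% of all genes. All 5 were Wdr4, Mettl1, Trmt6, Trmt61a and Nsun2, and the median of the list was 0.11 against 0.01 for all genes. Of the others Trmt11 had the smallest p (0.65, SE 0.22, edgeR adjusted p = 0.0578), with 70.2 CPM in the light and 45.0 in the dark zone. In plasma cells against naive B cells 22 of the 38 were lower and 4 higher, with a median of -0.57 against -0.11 for all genes, of which 32.5% were lower and 29% higher. The 3 higher beside Mettl1 were Hsd17b10, a mitochondrial tRNA methylation subunit (0.83, SE 0.13), Ftsj1, a ribose methyltransferase (0.55, SE 0.14), and Trmt61b, a mitochondrial methyladenosine enzyme (0.78, SE 0.24). Trmt1l, a relative of Trmt1 (-0.95, SE 0.15), Trmt2a, a uridine methyltransferase (-0.79, SE 0.16), and Mrm1 (-1.60, SE 0.33) were among the lower. In the dark zone against naive B cells 14 of 38 were lower, beside 30.6% of all genes, and 1, Trmt10a, was higher, beside 28.7% (1.28, SE 0.27, edgeR adjusted p = 0.000130). Lcmt2, of wybutosine synthesis (-1.23, SE 0.23), and Thumpd2 (-1.39, SE 0.27) were the lower ones with the smallest p outside the 6 members. In the light zone against naive B cells 10 (26.3%) were lower, near the 27.8% of all genes, and 5 (13.2%) higher beside 28.7%, with Trmt10a among the higher (1.33, SE 0.26). In plasma cells 4 were higher and 10 lower against the dark zone, beside 31.8% and 33.5% of all genes. Against the light zone 4 were higher and 14 lower, beside 30% and 34.2%. Hsd17b10 was among the higher in both (1.17, SE 0.13, and 0.89, SE 0.13).

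**Figure D4:**
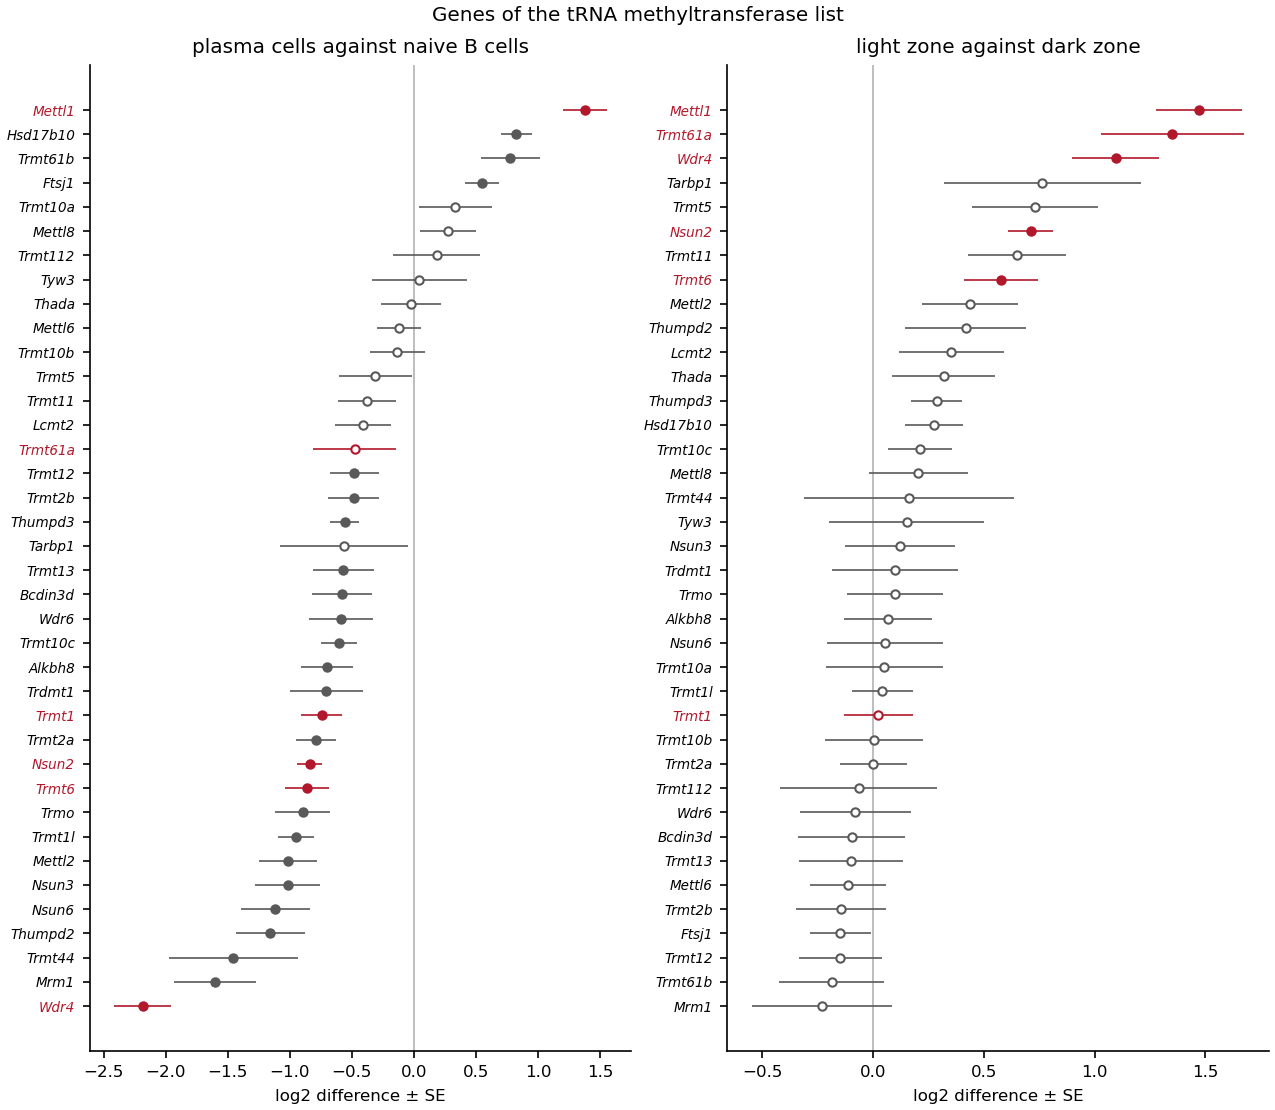
Log2 differences (± SE) of the 38 tested genes of the tRNA methyltransferase list, ordered within each panel, for plasma cells against naive B cells (left) and the light against the dark zone (right); the 6 genes described here are red, and filled points passed the edgeR test at an adjusted p below 0.05. On the left Mettl1 and Wdr4 are at opposite ends, and on the right the 5 filled points are all red.

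Genes of other tRNA modifications and of tRNA synthesis were also higher in the light zone where they passed, against a background of 5.98% of all genes higher and 3.49% lower. Of 48 tested genes of other tRNA modification 8 were higher in the light than the dark zone and 0 lower, led by the pseudouridine synthase Pus7 (1.53, SE 0.28, edgeR adjusted p = 0.000401), Elp5 of the Elongator complex (0.56, SE 0.13) and the acetyltransferase Nat10 (1.03, SE 0.27). Of 41 genes of tRNA transcription and processing 8 were higher and 0 lower, with the RNase P subunits Rpp38 (1.62, SE 0.23) and Rpp40 (1.64, SE 0.29) first. Beside them 16 of 20 MYC and nucleolar genes were higher in the light zone and 0 lower, with a list sum of 4807 to 5150 CPM in the light zone and 3076 to 3718 in the dark zone. Markers of T cells were also higher in the light zone, 5 of 9. The part of either in the results for the 6 genes was not tested. In plasma cells against naive B cells 24 of 48 and 18 of 41 genes of the same lists were lower and 5 of each higher, beside 32.5% and 29% of all genes. Among the higher were Dtwd1, which makes a uridine modification (1.04, SE 0.18), and the RNA polymerase III subunit Polr3k (0.63, SE 0.12), and among the lower Thumpd1, a partner of Nat10 (-1.17, SE 0.17), and the ligase subunit Rtcb (-0.63, SE 0.10).

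Of the 4 CUL4 ligase genes that Wdr4 can work with, Rbx1 was higher in plasma cells than in naive B cells (0.84, SE 0.12, edgeR adjusted p = 2.02e-07) and Cul4b lower (-0.56, SE 0.15, edgeR adjusted p = 0.00120), while 0 of 4 differed between the zones. Over all genes tested 29% were higher and 32.5% lower in plasma cells than in naive B cells. Between the zones 5.98% were higher in the light zone and 3.49% lower. Among 6 tested genes that remove RNA methylation or act in tRNA cleavage, 3 were higher in plasma cells than in naive B cells, led by the ribonuclease Rnaset2b (1.77, SE 0.25), whose reads may be shared with its near copy Rnaset2a. Alkbh1, a demethylase of methyladenosine in tRNA, was the 1 lower there (-0.83, SE 0.13, edgeR adjusted p = 1.89e-06) and higher in the light than in the dark zone (0.44, SE 0.13, edgeR adjusted p = 0.0218).

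Between genotypes none of the values that could be tested passed, in any population. In naive B cells 0 of 6 passed with edgeR, DESeq2 or limma voom, at an edgeR background of 0% of 10421 genes. An unadjusted p below 0.05 was found for 0 of 6 with edgeR, 0 with DESeq2 and 1 with limma voom. Over all genes the numbers were 319, 366 and 603. Mettl1 had the largest difference there (0.47, SE 0.28, edgeR adjusted p = 1.0). In the dark zone 0 of the 5 genes other than Wdr4 passed with edgeR, DESeq2 or limma voom, at an edgeR background of 0.021%. An unadjusted p below 0.05 was found for 0 of the 5 with edgeR, 0 with DESeq2 and 1 with limma voom. Over all 9539 genes the numbers were 715, 307 and 943. Mettl1 measured -0.73 (SE 0.40, edgeR adjusted p = 0.716), the opposite sign to Wdr4, and its WT libraries at 16.2 to 36.4 CPM overlapped those of aPIK3CD at 14.4 to 19.3. In the light zone 0 of 5 passed, at a background of 0%, and 0 had an unadjusted p below 0.05 (edgeR, DESeq2 and limma voom). Mettl1 measured 0.01 (SE 0.22) and Trmt61a 0.37 (SE 0.33).

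In plasma cells 0 of the 4 tested genes passed, at a background of 3.2%, and Wdr4 and Trmt61a were below the filter. With edgeR 1809 of the 7771 genes tested had an unadjusted p below 0.05, with DESeq2 1685 and with limma voom 1803. Of the 4 tested genes Nsun2 alone was among them with each method. It measured 108, 120, 107 and 94.1 CPM in WT and 141, 123, 156 and 178 CPM in aPIK3CD, and all aPIK3CD libraries lay above those of WT (0.45, SE 0.16, edgeR adjusted p = 0.114). The share of all genes that lie apart in this way is not given here. When the genotype difference of the light zone was set against that of the dark zone, 0 of the 5 genes other than Wdr4 passed, at a background of 0%. Of the 11736 genes tested 383 had an unadjusted p below 0.05 with edgeR, and of these 5 genes 1 had. Mettl1 alone had an unadjusted p below 0.05 with edgeR (0.78, SE 0.38, adjusted p = 1.0), and 0 had one with DESeq2 or limma voom. Over 424 alternatives of the 24 results for genes other than Wdr4 in these 5 comparisons 0 passed.

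Of the wider tRNA lists, 0 genes passed in naive B cells, the dark zone or the light zone. In the list headed tRNA methyltransferases the smallest p belonged to Mrm1 in naive B cells (0.44, SE 0.29). It belonged to Thumpd2 in the dark zone (-1.30, SE 0.42, edgeR adjusted p = 0.417) and to Trdmt1 in the light zone (1.01, SE 0.40, edgeR adjusted p = 0.702). In plasma cells 1 of 31 genes of tRNA transcription and processing passed, a share equal to the 3.2% of all genes, Rtcb, the catalytic subunit of the tRNA ligase, with 230.7 CPM in aPIK3CD and 137.2 in WT (0.72, SE 0.14, edgeR adjusted p = 0.0256).

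**Figure D5:**
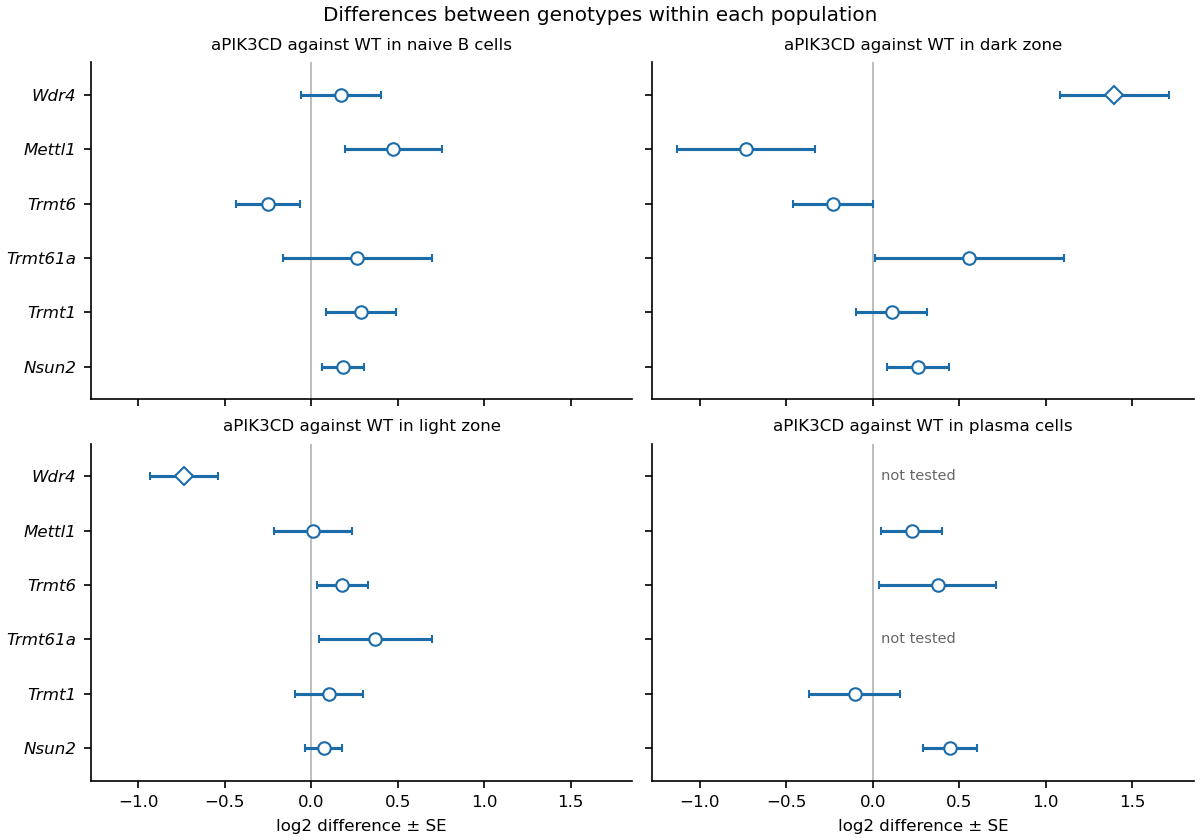
Log2 differences (± SE) of aPIK3CD minus WT for the 6 genes in each population, fitted for each population alone; circles are tested values, all open because none passed the edgeR test at an adjusted p below 0.05, and diamonds are the Wdr4 values that chose the gene and are shown without a test. Wdr4 lies at 1.40 in the dark zone and at -0.74 in the light zone.

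The genes whose log2 CPM followed Wdr4 most closely over the 31 deeper libraries were G3bp1, a stress granule protein (Pearson r = 0.88), Tomm34 (0.88), Pes1, a ribosome assembly factor (0.88), Swap70 (0.88) and the helicase Ddx31 (0.87), of 9526 genes with at least 10 CPM on average. These libraries fall into 4 populations and share their low values in plasma cells, where Pes1 measured 17.6 CPM in WT and 21.2 in aPIK3CD against 67.3 and 77.9 in naive B cells. Of the other members Nsun2 followed at 0.82, Trmt6 at 0.71, Trmt1 at 0.65 and Trmt61a at 0.52, and Mettl1 ran against it at -0.42. In the dark zone the WT values of Tomm34, Ddx31, Pes1, G3bp1 and Swap70 include replicate 3, with 25797 counts in all. Tomm34 measured 150.6 ± 33.6 CPM in WT (SD, n = 4) and 241.3 ± 16.7 in aPIK3CD (n = 4). Ddx31 measured 25.6 ± 8.92 and 40.4 ± 11.7 CPM, and Pes1 68.2 ± 49.2 and 49.7 ± 6.62 CPM. G3bp1 measured 207.3 and 263.2 CPM and Swap70 406.1 and 502.1 CPM. Levels without replicate 3 are not given here, so no order of the genotypes in the dark zone is drawn from these means. In the light zone Tomm34 measured 194.4 ± 18.5 CPM in WT and 220.2 ± 28.3 in aPIK3CD, and Ddx31 48.7 ± 5.96 and 49.5 ± 6.47 CPM (n = 4), while the Wdr4 mean was lower in aPIK3CD there.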

How the data were processed

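Per the labels' protocols, libraries were made with the SMART-Seq v4 kit from sorted cells, and per the submitters' processing notes STAR 2.4.2a, HTSeq and Picard were used, in roles not given in the sources used here, as is the genome build. The authors deposited raw counts per gene for 32 libraries. Samples were grouped by title. The members and the gene lists were chosen with earlier results of these data known.

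Counts were tested with edgeR 4.0.16 in R 4.3.3 (TMM, filterByExpr with a minimum count of 10 and total of 15, two-sided quasi-likelihood F test, Benjamini-Hochberg over all genes tested, threshold 0.05). Genotypes were compared within each population alone. Populations, averaged over genotypes, and the interaction came from a single fit of all 32 libraries. The SE is the absolute log2 difference over the square root of F. The scripts were tested on simulated data. Named are all 6 members; from each tRNA list up to 3 genes per direction with the smallest p past the threshold and at least 10 CPM in the higher group, or the 1 with the smallest p; from the eraser and CUL4 lists up to 1 per direction; and the 5 genes most like Wdr4, with predicted genes and immunoglobulin segments left out. Ratios used counts plus 0.5. Exon lengths came from GENCODE M21. Alternatives were DESeq2 1.42.0, its size factors, limma 3.58.1 voom, no filter, a table without immunoglobulin and T cell receptor segments, a replicate block, a single fit for genotypes, the other groupings of aPIK3CD replicate 1, and leaving out each library.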

Additional observations from a re-analysis of the deposited data

Results flagged for a closer look

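Trmt6 in dark zone WT replicate 3 was listed at 0 CPM, far from the other 3 libraries of its group at 94.5 to 108 CPM, and the gap, as a share of the range, was 0.873. That library held 25797 counts in all, where 0 counts still allow up to 105 CPM on the same scale, within the range of the other 3. It was 1 of 48 groups of 4 examined; chance alone marks about 1 group in 20.

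The Wdr4 difference between genotypes ran opposite in the zones, with -2.12 on the log2 scale for light minus dark zone. Every aPIK3CD library was above every WT library of at least 100000 counts in the dark zone and below in the light zone. The difference was not tested, because it chose the gene.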

How the results depend on the processing

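Of 36 results for members between populations 25 passed, and 22 of these passed with the same direction in all of their 24 alternatives; the exceptions were Trmt61a in the dark zone against naive B cells, Trmt6 in the light against the dark zone and Nsun2 in plasma cells against the dark zone, as given above. The cause was not tested. The number of members that passed between the light zone and naive B cells, 0, was 2 with limma voom and 0 to 1 when a library was left out. Counting aPIK3CD replicate 1 as WT moved the Wdr4 difference in the dark zone to 0.87 and its light minus dark zone value to -1.52; leaving out those 4 libraries gave -2.15 for the latter. The labels do not say that a replicate number marks 1 mouse, and deviations of same-numbered libraries correlated by over 0.1 in 14 of 45 pairs of populations and 3 of 15 pairs of genotypes, so the numbers were not taken as pairs. The highest was 0.38, between aPIK3CD dark and light zone, so a shared source within a genotype remains possible. A replicate block changed no call of a member; over all genes it called 53 in place of 2 between genotypes in the dark zone and 77 in place of 249 in plasma cells. Depth limits Wdr4 and Trmt61a most in plasma cells, where they had 2 to 16 and 3 to 13 counts. Both entered the plasma cell comparisons only through their counts in the other populations.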
